A study of Homo sapiens with 4 samples.

Results

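The genes examined were the protein-coding members of the MAGEA, MAGEB, MAGEC, PAGE, XAGE, GAGE and SSX families, measured in human embryonic stem cells (hESCs) of the naïve and of the primed state. They were chosen by symbol alone, as a family name followed by a digit, which gave 59 genes of the 62218 in the annotated count tables. Of these, 58 lie on the X chromosome. SSX2IP lies on chromosome 1 and encodes a protein that binds SSX2, so it shares letters with the SSX family and no sequence family, and it is described apart. Complementary DNA from wild-type H1 cells, an established hESC line, was sequenced on the Nanopore platform as 4 libraries, 2 per state. Naïve cells were derived from the H1 primed cells in the medium labelled FINE, which per the study's methods held dasatinib, AZD5438, SB590885, PD0325901, Y-27632, LIF, activin A and bFGF, at low oxygen. Primed cells were grown in mTeSR on Matrigel at normal oxygen. Both states come from a single line, medium and oxygen differ together, and nothing says that the replicates were separate cultures, so that p-values measure the spread between these libraries, which may be technical.

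These families are cancer-testis antigens. In adults, most members are transcribed in the germ cells of the testis, some also in the placenta, and they are silent in other healthy tissues until tumours express them. DNA methylation of their promoters is a well-known barrier to their transcription, and many sit in recently duplicated arrays on the X chromosome. MAGE proteins of the A, B and C subfamilies bind RING ubiquitin ligases through a shared MAGE homology domain, SSX proteins are repressors of transcription that are fused to SS18 in synovial sarcoma, and GAGE, PAGE and XAGE proteins are small, acidic and largely disordered.

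Each gene took the count of its transcript with the largest mean count. These are raw counts of alignments over the whole span of a transcript, with introns included and strand ignored, and an alignment was counted at every place where it aligned. The libraries held 153647482 and 161548901 counts in naïve hESCs and 129276054 and 132927036 in primed hESCs over all transcripts. A gene was tested where at least 2 libraries had at least 10 counts. A count of 0 allows up to 3 counts, and this limit, like the intervals given here, covers counting error only. CPM are counts scaled by the TMM-normalized library size. Marker genes were chosen with earlier results of these data known, so they describe the states and are no independent check of the labels. All 8 naïve markers were lower and all 8 primed markers higher in primed hESCs. The naïve marker KLF17, named after its value was seen, fell by only 0.41 on the log2 scale. Of 20 trophoblast markers, 18 were lower in primed hESCs, and the summed level of the 20 was 3560.2 and 3903 CPM in the naïve libraries against 12.3 and 14.7 CPM in the primed ones. Over all genes tested, 32.6% were lower and 37.4% higher in primed hESCs.

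Of the 58 X-linked genes, 21 were lower in primed hESCs and 2 were higher, by the quasi-likelihood test of edgeR, with p-values adjusted over all genes tested (Benjamini-Hochberg) and a threshold of 0.05. The lower calls were 36.2% of the 58 genes and the higher calls 3.45%. They compare with 27.2% and 29.2% of all protein-coding genes. Over all genes of any kind, expressed or not, the shares were 14.5% and 16.6%. Over the 27633 genes of any kind tested, 70.0% were called, 32.6% lower and 37.4% higher in primed hESCs. Of the X-linked members tested, 91.3% were lower and 8.7% were higher. The lower calls covered 4 of 5 XAGE genes, 10 of 13 GAGE genes and 5 of 8 SSX genes. Of the 12 MAGEA genes only MAGEA4 passed the filter, and of the 3 MAGEC genes none did. A further 16 genes had no count in any library, and 19 had counts but stayed under the filter. Of the 23 X-linked genes tested, 20 passed the filter through the naïve libraries alone and 2 through the primed libraries alone. Only PAGE4 passed it in both states. For the others, the filter itself favoured a higher value in the state that passed it. Summed over the 58 genes, the level was 176 and 168 CPM in the naïve libraries and 3.6 and 3.23 CPM in the primed libraries. In bulk samples, fewer cells of a type and less RNA per cell cannot be told apart.

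**Figure D1:**
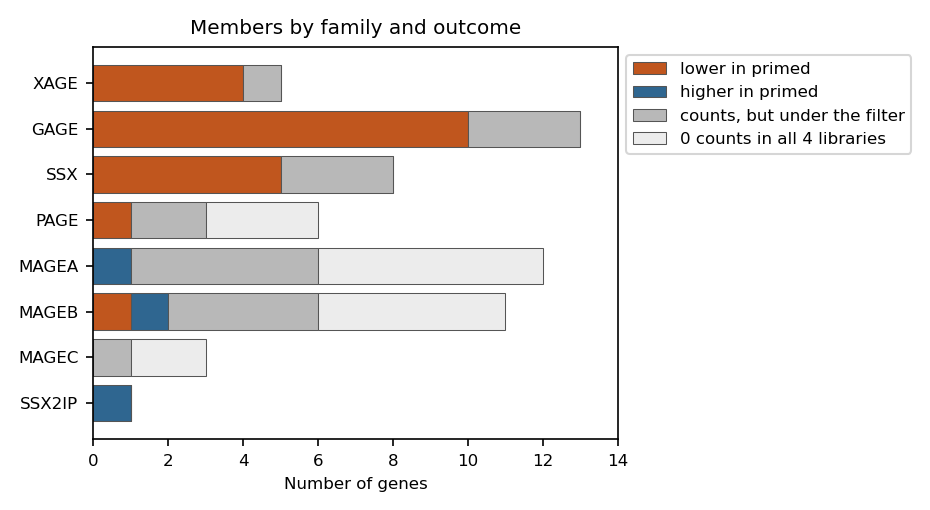
Number of genes (horizontal axis) in each family by outcome, for the 59 genes matched by the rule; SSX2IP has a bar of its own. Calls lower in primed hESCs fill 4 of 5 XAGE, 10 of 13 GAGE and 5 of 8 SSX genes, while 6 of 12 MAGEA, 5 of 11 MAGEB, 2 of 3 MAGEC and 3 of 6 PAGE genes had 0 counts in all 4 libraries.

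Most of the signal came from XAGE2, an XAGE antigen known for expression in placenta. XAGE2 had 3180 and 3426 naïve counts and none in either primed library, on chromosome X of GRCh38 from 52369021 to 52375680, a gene of 5 exons. Its level in naïve hESCs was 136 ± 2.53 CPM (SD, n = 2), at least 1362-fold higher than in primed hESCs when each primed library is set to 3 counts. Per kilobase of exons, XAGE2 stood at 217 CPM and ranked 354 of 19983 protein-coding genes in naïve hESCs. That scale raises short transcripts, and XAGE2 has only 627 exonic bases, so the rank is not one of CPM. The adjusted p of the difference between the states was 2.07e-31 (edgeR).

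XAGE1A, on chromosome X from 52495877 to 52500812, encodes an antigen studied in lung cancer and was next with 305 and 320 counts in the naïve libraries and 0 in both primed ones. Its level was 12.9 ± 0.481 CPM (SD, n = 2), at least 129-fold above primed hESCs. Per kilobase of exons XAGE1A stood at 26.8 CPM, rank 1550, which its short length of 482 exonic bases likewise raises. XAGE1B, an inverted copy of the same gene, had 14 and 17 counts in naïve hESCs and none in primed hESCs. XAGE3, also known from placenta, had 13 and 11 counts in naïve hESCs and none in primed hESCs. The bounds for these smaller members were at least 6.37-fold for XAGE1B and at least 4.98-fold for XAGE3, with adjusted p-values of 1.02e-07 and 9.46e-07 by edgeR. XAGE5 had 1 count in each naïve library and stayed under the filter. The XAGE family as a whole therefore held 3513 and 3775 counts in naïve hESCs and 0 in primed hESCs.

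**Figure D2:**
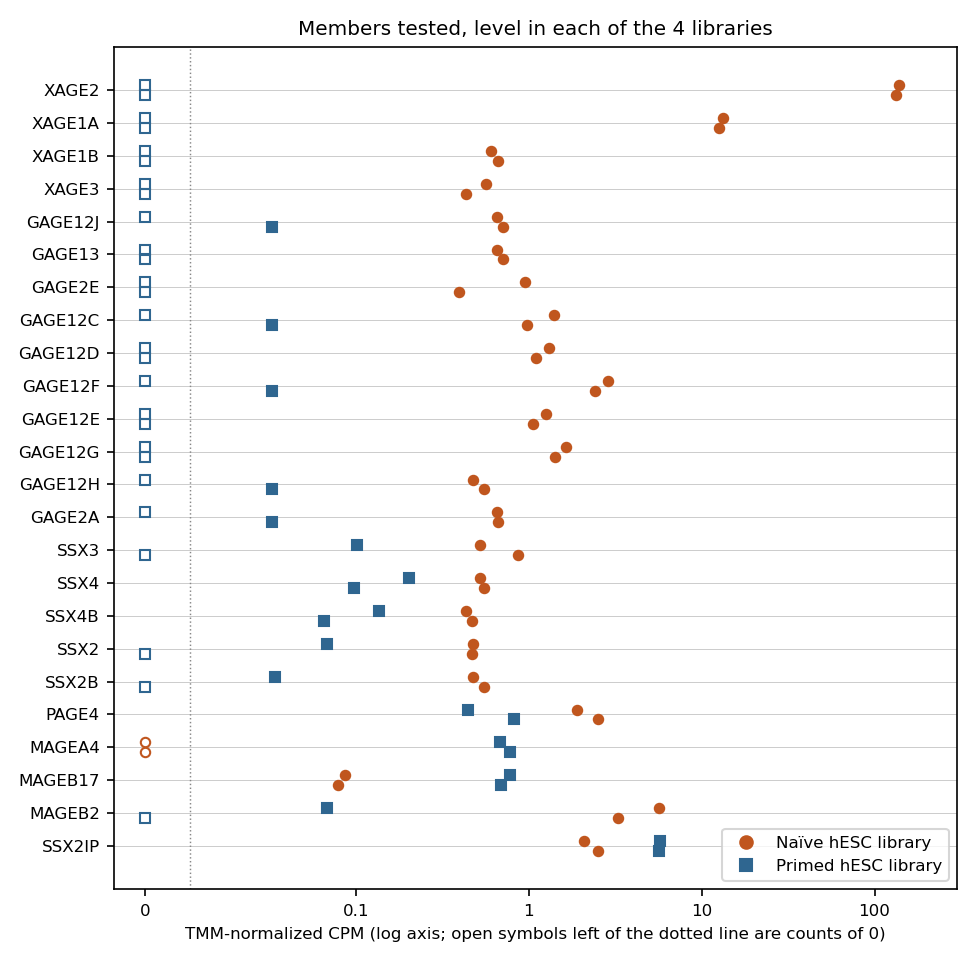
TMM-normalized CPM (log axis, with counts of 0 drawn as open symbols left of the dotted line) of the 24 members tested in each library, circles for naïve and squares for primed hESCs. XAGE2 stands apart at 138 and 134 CPM in the naïve libraries; MAGEA4, MAGEB17 and SSX2IP are the genes whose primed libraries lie to the right of the naïve ones.

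XAGE1A and XAGE1B are near-identical, which limits what each value says. On the genome, their spans of 4936 bases differ at 2 positions (99.96% identity), both outside the exons of the canonical transcript. The canonical transcripts were identical over 464 aligned bases, and the 250 bases before each start were identical too. The counts nevertheless differed from 305 and 320 at XAGE1A to 14 and 17 at XAGE1B. The split between the copies is thus uncertain, and the reason for it was not tested. XAGE2 is more distinct, with 86.3% identity to XAGE3 over 510 aligned transcript bases and 77.9% to XAGE1A over 480.

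GAGE genes form tandem repeats on the X chromosome, and 10 of 13 were called lower in primed hESCs. Their 121-base second coding exon, shown here because it is where copies can be compared letter by letter, exists in 4 versions among the 12 genes that hold it. The capitals mark the 3 positions that vary, counted from 1 at the 5′ end of the exon. The version shared by GAGE10, GAGE12J, GAGE13, GAGE2E, GAGE12F, GAGE12G and GAGE1 is given at its GAGE10 position, chrX:49305404-49305524 on the plus strand of GRCh38. GAGE12C, GAGE12D and GAGE12E carry C64T, GAGE12H carries C64T and G88A, and GAGE2A carries G94C, relative to GAGE12G.
GAGE10 and 6 others: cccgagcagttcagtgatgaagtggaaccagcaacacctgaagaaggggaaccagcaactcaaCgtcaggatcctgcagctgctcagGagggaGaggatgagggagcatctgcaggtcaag
GAGE12C and 2 others: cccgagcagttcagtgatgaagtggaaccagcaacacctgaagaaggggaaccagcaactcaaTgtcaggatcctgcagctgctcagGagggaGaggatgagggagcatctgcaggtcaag
GAGE12H: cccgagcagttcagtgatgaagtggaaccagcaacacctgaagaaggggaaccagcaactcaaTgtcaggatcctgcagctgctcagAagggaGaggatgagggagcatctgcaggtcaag
GAGE2A: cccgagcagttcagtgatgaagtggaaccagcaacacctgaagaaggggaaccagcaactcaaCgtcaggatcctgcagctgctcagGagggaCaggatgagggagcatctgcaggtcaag

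The counts of GAGE12G were 38 and 36 in the naïve libraries and 0 in both primed libraries, at least 15.3-fold higher in naïve hESCs. GAGE12D had 30 and 28 counts in naïve hESCs and GAGE12E had 29 and 27, with no primed count for either gene. GAGE13 had 15 and 18 naïve counts and GAGE2E 22 and 10, again with 0 in primed hESCs. All 5 genes passed the filter through the naïve libraries alone.

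The other called copies had a single primed count, always in primed rep2. GAGE12C had 32 and 25 naïve counts, and its summed count was 70.5 times the primed one after normalization (95% exact interval 12.2 to 2834). GAGE12J had 15 and 18 naïve counts, GAGE12H had 11 and 14, and GAGE2A had 15 and 17. Without primed rep2, no primed count is left, and the fitted log2 fold changes of GAGE12J, GAGE12C, GAGE12H and GAGE2A went from -5.01, -5.80, -4.61 and -4.97 to -7.15, -7.94, -6.75 and -7.11, and that of GAGE12F from -6.96 to -9.10. Without primed rep1, the values of GAGE12J, GAGE12C, GAGE12H, GAGE2A and GAGE12F were -4.19, -4.98, -3.80, -4.15 and -6.15. Fitted values against a state left at 0 depend on the prior count and are no bounds. GAGE12F had the largest value of the family, 66 and 62 counts, but the span of the transcript behind it also encloses GAGE12E. On its canonical transcript, which starts after the end of GAGE12E, GAGE12F had 37 and 35 counts in naïve hESCs and 0 and 1 in primed hESCs. The adjusted p-values of the 10 genes called ran from 4.62e-06 for GAGE12H to 1.14e-13 for GAGE12F by edgeR.

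Of the 13 GAGE genes, 10 form a group linked by at least 95% protein identity, and an alignment to 1 copy can be counted at others, so that calls on copies are not independent. GAGE1 belongs to that group and had 1 count in each naïve library. GAGE2E was left out of the group at 94.0% protein identity to GAGE12F, although their transcripts were identical over 403 aligned bases. GAGE12B is annotated with a transcript of 117 bases, had 20 and 8 naïve counts against 0 and 1 primed counts and stayed under the filter. Without the count filter it was called lower in primed hESCs, with a log2 fold change of -4.79 and an adjusted p of 2.64e-07 by edgeR. GAGE10 stood apart in sequence, with 94.8% transcript identity to GAGE12J, and in counts. It had 2 counts in each naïve library against 10 and 6 in primed hESCs, where the primed sum was 3.23 times the naïve sum (95% exact interval 1.04 to 13.3). Without the count filter GAGE10 was not called, at an adjusted p of 0.103 by edgeR.

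**Figure D3:**
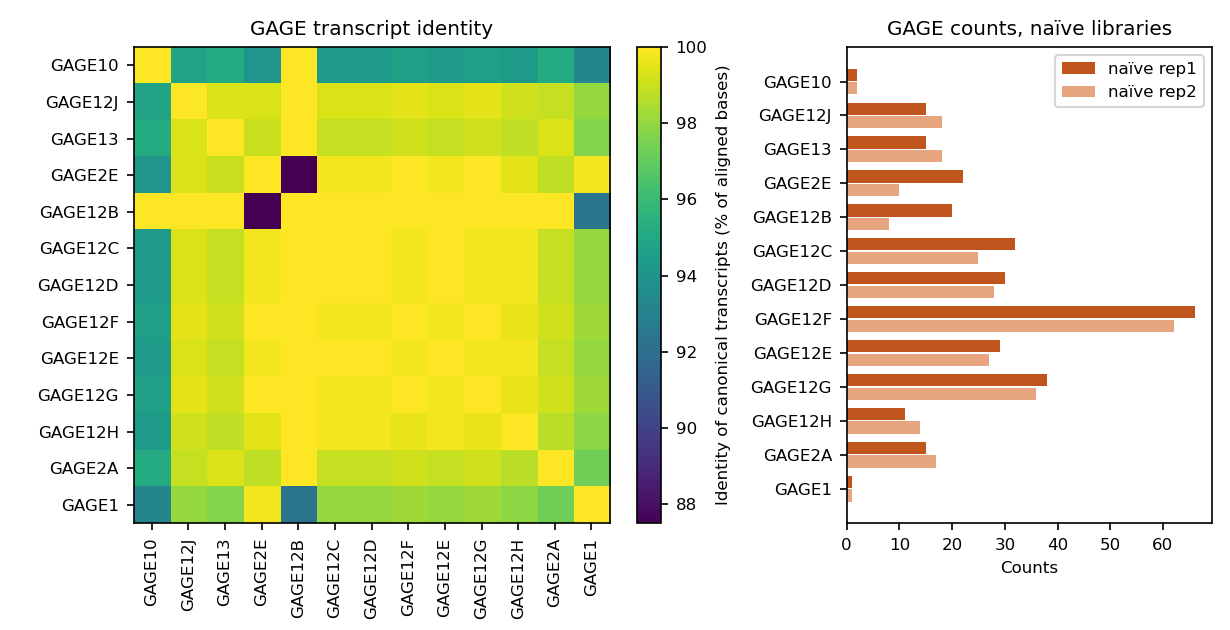
Left, identity of the canonical transcripts (colour scale, percent of aligned bases) between each pair of the 13 GAGE genes. Right, counts in the naïve libraries (bars). GAGE10 shows the low identity band, GAGE12B is a short fragment, and GAGE12F, with 66 and 62 counts, includes the alignments of GAGE12E.

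Among the SSX repressors, 5 of 8 genes were called lower in primed hESCs, all at low counts. SSX3 was counted 12 and 22 times in naïve hESCs against 3 and 0 times in primed hESCs, a ratio of 14 (95% exact interval 4.41 to 71.4). SSX2 had 11 and 12 naïve counts and 2 and 0 primed counts, and its copy SSX2B had 11 and 14 against 1 and 0. The primed counts of these genes all lay in primed rep1, and without it the fitted log2 fold changes went from -3.69, -3.66 and -4.61 to -7.21, -6.66 and -6.78 for SSX3, SSX2 and SSX2B. Without primed rep2, they were -2.72, -2.72 and -3.74.

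SSX4 had 12 and 14 naïve counts and 6 and 3 primed counts, and SSX4B had 10 and 12 against 4 and 2. Both passed the filter through the naïve libraries alone. The log2 fold changes were -1.80 ± 0.55 (SE) and -2.13 ± 0.62 (SE), with adjusted p-values of 0.0032 and 0.00186 by edgeR. Both calls were lost with DESeq2, at adjusted p-values of 0.0798 for SSX4 and 0.0671 for SSX4B, and without primed rep2 (adjusted p-values of 0.088 and 0.0635 from edgeR). Without primed rep1, the log2 fold change of SSX4 was -2.40. SSX4 was also lost with library size in place of TMM, at an adjusted p of 0.0547 from edgeR. SSX2 and SSX2B have identical canonical transcripts of 1281 bases, and SSX4 and SSX4B are identical over 1205 aligned bases, so alignments to the copies of a pair cannot be told apart by exonic sequence. SSX1, SSX5 and SSX7 had no more than 3 counts in any library.

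PAGE4, a disordered protein known from prostate and placenta, was the X-linked member with counts in both states that passed the filter in each. It was counted 44 and 64 times in naïve hESCs against 13 and 25 times in primed hESCs, a ratio of 3.52 (95% exact interval 2.41 to 5.23). Its level fell from 2.21 ± 0.425 CPM (SD, n = 2) in naïve hESCs to 0.629 ± 0.265 CPM (SD, n = 2) in primed hESCs (edgeR, adjusted p = 8.42e-06). The libraries of the states did not overlap. PAGE1, PAGE3 and PAGE5 had no count, and PAGE2 and PAGE2B had at most 4 in a library.

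Among the MAGE families, calls were few and went in both directions. MAGEB2, an RNA-binding MAGE protein of the testis, on chromosome X from 30215563 to 30220089, was counted 131 and 83 times in naïve hESCs against 2 and 0 times in primed hESCs. Its level was 4.47 ± 1.72 CPM (SD, n = 2) against 0.034 ± 0.0481 CPM (SD, n = 2), a ratio of 132 (95% exact interval 36.2 to 1100.2), with an adjusted p of 2.96e-15 by edgeR. The primed counts came from primed rep1 alone, and the fitted log2 fold change went from -6.88 to -9.88 without that library and to -5.94 without primed rep2.

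MAGEA4, which binds the ubiquitin ligase RAD18 and is a target of T cell therapy, ran the other way. Its transcript lies on chromosome X from 151912509 to 151925166. It had no count in either naïve library but 20 and 24 in primed hESCs, a level of 0.732 ± 0.0731 CPM (SD, n = 2) that was at least 5.9-fold above naïve hESCs. The adjusted p was 1.09e-07 by edgeR. An antisense RNA that overlaps it, MAGEA4-AS1, had 3 and 2 primed counts and no naïve count. MAGEB17 had 2 counts in each naïve library against 23 and 21 in primed hESCs, 8.89 times higher (95% exact interval 3.24 to 34.1), with an adjusted p of 1.55e-05 by edgeR. A long noncoding RNA on the opposite strand, ENSG00000238178, covers most of MAGEB17 and had 5 and 3 counts in naïve hESCs and 600 in each primed library. Most of these 600 lay outside MAGEB17, whose span held only 23 and 21 primed counts of either strand. A shorter transcript of this RNA, which ends at 16167603, near the start of MAGEB17 at 16167481, had 592 and 591 primed counts. Since strand was ignored in counting, reads of MAGEB17 and of this RNA cannot be told apart.

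Of the remaining MAGE genes, MAGEA1, MAGEA3, MAGEA6, MAGEA8, MAGEA10, MAGEA12, MAGEC1 and MAGEC2, which include antigens used as vaccine targets, had 0 counts in all 4 libraries, and so did MAGEB5, MAGEB6, MAGEB6B, MAGEB10 and MAGEB18. The 10 further MAGE genes had counts but no more than 4 in any library. No MAGEA gene had a count in a naïve library, which allows up to 3 counts in each. At this depth transcription of these genes was not detectable, which does not show that it is absent.

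SSX2IP, a centrosome and cell junction protein, had 48 and 64 counts in naïve hESCs and 168 and 174 in primed hESCs. The primed level was 2.47 times the naïve level (95% exact interval 1.99 to 3.08) and the log2 fold change was 1.30 ± 0.23 (SE), with an adjusted p of 2.97e-06 by edgeR. With this gene 3 of the 59 genes were higher in primed hESCs.

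**Figure D4:**
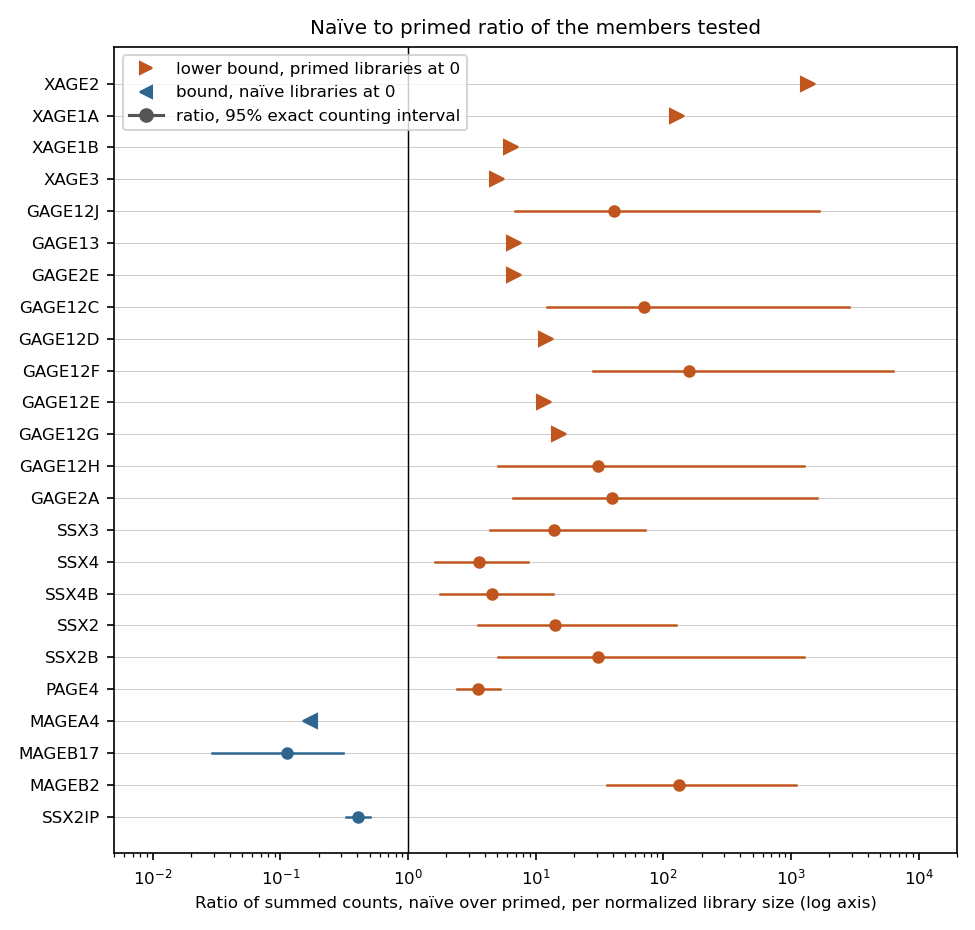
Ratio of naïve to primed counts of the 24 members tested (log axis, per normalized library size); dots with lines give the ratio and its 95% exact counting interval, and triangles give bounds where a state had no counts, set at 3 counts per library. XAGE2, at least 1362, lies farthest to the right, and MAGEA4, MAGEB17 and SSX2IP lie below 1.

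The chromosomal neighbours of the antigens were set beside them as a description, in a stretch chosen after the counts of the families were seen. Between the start of GAGE10 and the end of XAGE3, chrX:49303646-52868083 on GRCh38, lie 23 members and 18 other protein-coding genes. Of the members there, 17 were lower in primed hESCs and 6 were not tested, and 16 of the 17 had passed the filter through the naïve libraries alone. Of the other genes, 12 were tested, 10 were higher and 2 were lower in primed hESCs. Of the higher ones, NUDT10, DGKK and the CENPVL genes passed the filter through the primed libraries alone, which favoured a higher value there. Among all protein-coding genes tested, 36.7% were higher and 34.2% were lower. NUDT10 had 6 counts in each naïve library against 103 and 117 in primed hESCs, SHROOM4 had 15 and 13 against 144 and 122, and GSPT2 had 15 and 23 against 209 and 184. The genes lower in primed hESCs were CLCN5 and MAGED1, with log2 fold changes of -0.56 and -0.33, named after their values were seen. These neighbours include copies that share reads, such as MAGED4 with MAGED4B and the CENPVL genes.

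Other X-linked cancer-testis genes were mostly untested. Of 53, 7 were tested and 6 were lower in primed hESCs. The lower calls are 11.3% of the list, beside 27.2% of all protein-coding genes and 14.5% of all genes in the tables. Of the 46 not tested, 26 had no count and none had more than 15 in a library. The genes called were 5 SPANX genes of sperm nuclei and LUZP4, and they were chosen for naming after their values were seen. All 6 passed the filter through the naïve libraries alone, so the filter itself favoured a lower value in primed hESCs. The same holds, in either direction, for genes below that passed it in 1 state only. LUZP4 had 52 and 69 counts in naïve hESCs and 3 in each primed library. SPANXA1 and SPANXA2 had the same counts, 49 and 36 against 5 and 2, and are copies of each other.

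Type II MAGE genes carry the same homology domain but are expressed widely. Of 11 such genes 9 were tested, 6 were higher and 2 were lower in primed hESCs, and 1 was not called. These are 66.7% higher and 22.2% lower of those tested, beside 37.4% and 32.6% over all genes tested. MAGED4 had 42 and 40 counts in naïve hESCs and 297 and 306 in primed hESCs, and the imprinted gene NDN had 14 and 11 against 96 and 114. MAGEF1, a partner of a nuclear ubiquitin ligase, had 75 and 68 against 431 and 351. Of 9 partners of MAGE and SSX proteins, 3 were higher and 2 were lower, or 33.3% and 22.2%, which does not exceed the 37.4% and 32.6% over all genes tested. TRIM28, a corepressor and ubiquitin ligase that MAGEC2 binds, had a log2 fold change of 0.42, and PJA1, another ubiquitin ligase, of 1.39. The ubiquitin ligase LNX1 fell by 1.45 and the AMP-activated kinase subunit PRKAA1 fell by 1.05 on the log2 scale.

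Of 18 autosomal germline genes, 17 were tested, 8 were lower and 6 were higher in primed hESCs. These are 47.1% lower and 35.3% higher of those tested, beside 32.6% and 37.4% over all genes tested. BRDT, a testis bromodomain protein, had 1301 and 1555 counts in naïve hESCs and 15 and 12 in primed hESCs. SYCP3, of the synaptonemal complex, had 306 and 365 against 28 and 31. PRAME, a tumour antigen outside the X chromosome, had 141 and 115 counts in naïve hESCs and 0 in primed hESCs, at least 53.2-fold higher. DAZL, an RNA-binding protein of germ cells, ran the other way with 6 and 1 counts against 320 and 342. The median log2 fold change of the genes tested was -0.16 for this list, 2.14 for the type II MAGE genes, 0.21 for the partners and 0.08 over all genes tested. Of 8 germ cell markers, 7 are also in the autosomal list and 7 were tested. Of those tested, 3 were lower and 2 higher, or 42.9% and 28.6%, beside 32.6% and 37.4% over all genes tested. The summed level of the 8 markers was 31 and 29.8 CPM in the naïve libraries against 22.1 and 22.9 CPM in the primed ones. Among the trophoblast markers, 4 of 20 were at 0 in both primed libraries, and the naïve libraries held 35747 and 47550 counts of CGA and 8234 and 9529 of S100P. XAGE2, XAGE3 and PAGE4 are known from placenta, and the part of trophoblast RNA in their naïve counts was not tested.

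**Figure D5:**
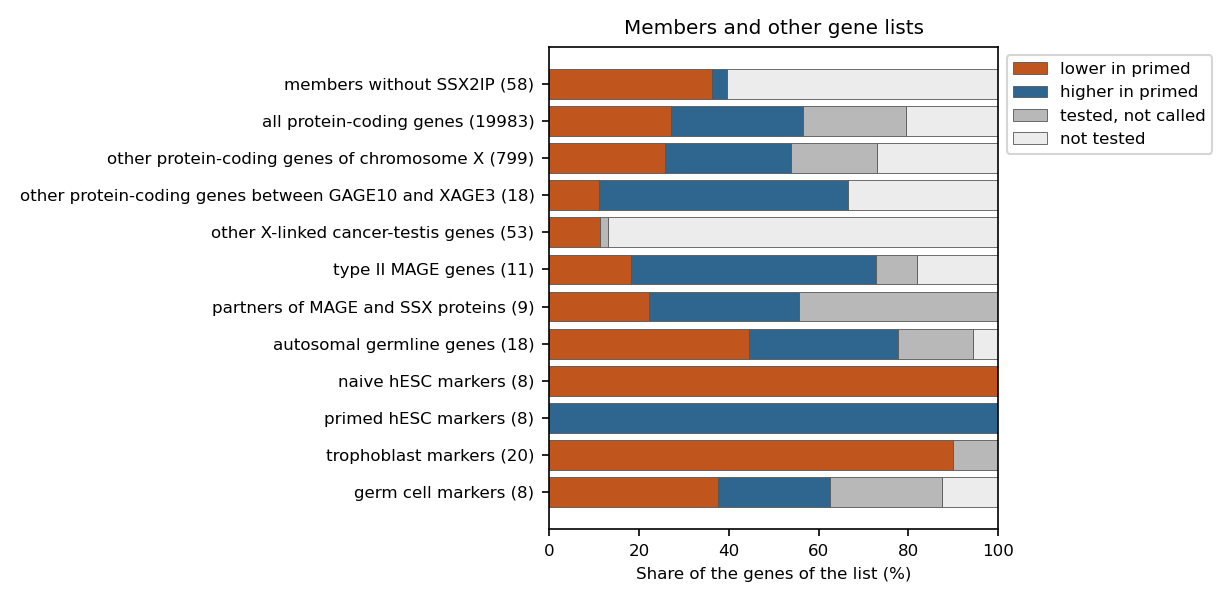
Share of the genes of each list (horizontal axis, percent; number of genes in parentheses) that were lower in primed hESCs, higher, tested but not called, or not tested. The 58 X-linked members hold 36.2% lower and 3.45% higher calls, the other protein-coding genes of chromosome X hold 25.8% lower and 28.2% higher.

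Promoter windows of 250 bases before to 50 after the start were taken from RefSeq (GRCh38.p14), where 53 of the 58 members had an entry. The median number of CG dinucleotides was 12 in these 53 windows and 14 over 27305 promoters. It was 13 in the 19 promoters of genes lower in primed hESCs and 10 in the 33 promoters of members not tested. Near-identical copies are counted separately here, and every GAGE window among the lower genes had 13, so these windows are not independent. The letters CCGGAA, the core that ETS factors bind, stood on either strand in 3 of 53 member windows (5.66%) and in 17.6% of all windows. The 3 were MAGEA3, MAGEA6 and MAGEB6, all at 0 counts, and MAGEA3 and MAGEA6 are identical over the 250 bases before the start. The upstream 250 bases are shown for the gene with most counts, for a GAGE copy and for the MAGEA gene that was higher in primed hESCs, with CG in capitals.
XAGE2 (chrX:52368771-52369020, plus strand): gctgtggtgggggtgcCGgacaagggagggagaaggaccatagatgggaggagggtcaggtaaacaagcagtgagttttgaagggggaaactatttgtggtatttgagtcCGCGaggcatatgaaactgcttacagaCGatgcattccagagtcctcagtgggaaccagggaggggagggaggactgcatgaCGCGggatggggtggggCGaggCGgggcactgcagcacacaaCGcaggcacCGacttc
GAGE12G (chrX:49570147-49570396, plus strand): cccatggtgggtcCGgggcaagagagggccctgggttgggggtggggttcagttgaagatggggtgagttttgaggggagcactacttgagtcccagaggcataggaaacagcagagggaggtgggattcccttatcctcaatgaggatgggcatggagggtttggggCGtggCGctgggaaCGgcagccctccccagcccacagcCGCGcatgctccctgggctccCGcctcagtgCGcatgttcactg
MAGEA4 (chrX:151912224-151912473, plus strand): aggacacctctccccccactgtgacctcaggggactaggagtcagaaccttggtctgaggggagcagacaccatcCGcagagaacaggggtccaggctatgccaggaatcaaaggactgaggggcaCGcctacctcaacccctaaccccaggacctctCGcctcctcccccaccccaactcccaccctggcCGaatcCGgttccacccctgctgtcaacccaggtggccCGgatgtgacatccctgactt

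These stretches hold 10 CG dinucleotides for XAGE2, 8 for GAGE12G and 6 for MAGEA4. Among the GAGE copies compared, the upstream stretch of GAGE10 differed most from that of GAGE12G, with 90.3% identity over 247 aligned bases. GAGE10 was under the filter, and any tie between this stretch and its counts was not tested. The other 10 GAGE copies compared were identical to GAGE12G over 231 to 247 aligned bases.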

How the data were processed

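Reads of the 4 libraries were aligned by the authors to GRCh38 with minimap2 and counted with featureCounts 2.0.0 on every transcript of Ensembl release 105. The deposited values are raw counts, with no normalization and no pooling of replicates. Spans were counted whole, without strand, for every transcript overlapped and every place aligned, so that introns, antisense RNAs and near-identical copies add to a count. Library totals ran from 129276054 to 161548901 counts, and a floor of 3 counts per library was used for bounds.

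Transcripts were matched by identifier to GENCODE 44, and 99.1% of 244825 had a match. The genes matched by symbol were assigned to the count of the transcript with the largest mean. The test took genes that reached 10 counts in 2 or more libraries and used edgeR 4.0.16 (TMM, quasi-likelihood test, state as the term, two-sided, R 4.3.3), with Benjamini-Hochberg adjustment over all 27633 genes. Ratio intervals are exact Clopper-Pearson intervals. The test was tried on simulated data in which 200 genes changed 4-fold, and it recovered 90.5% of them and called 9 unchanged genes of 26416 tested. Every simulated gene had a dispersion of 0.02 and most were unchanged, while 70.0% of genes were called in the data. The trial therefore does not assess the normalization of these data. Copies were compared by global alignment (Biopython 1.88).

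All members that passed the filter are named. Of the other gene lists, at most 4 genes each were named, those with the largest log2 fold change among genes called with a mean count of at least 50 and no overlap between states. KLF17, CLCN5, MAGED1, DGKK, LUZP4 and the SPANX and CENPVL genes fall outside this rule and were named after their values were seen. The members and lists were chosen with earlier results of these data known. Alternatives were another normalization, DESeq2 1.42.0, other filters, gene values and thresholds, a replicate block and each library left out. The canonical transcript as gene value was added after the data were seen.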

Additional observations from a re-analysis of the deposited data

How the results depend on the processing

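Of the 59 genes, 21 were lower and 3 higher in primed hESCs. A filter of at least 50 counts in at least 2 libraries left 5 members to test, 4 lower and 1 higher. Near-identical copies taken as 1 group gave 10 groups lower and 3 genes higher. GAGE2E counted there as a group of its own, although its transcript matched that of GAGE12F at every aligned base. With each library left out in turn, between 19 and 21 members were lower and 3 were higher. DESeq2 gave 19 lower, library size in place of TMM 20, and no count filter or summed transcripts 22 each, with 3 higher in each of these. Library size in place of TMM moved the median log2 fold change of the genes tested from 0.08 to 0.72. No tested member reversed its direction under any of these alternatives. The fit with a replicate block gave the same numbers, 21 lower and 3 higher, and changed no call of a member. Same-numbered libraries deviated from their state means with a correlation of 0.0407, so no pairing by number was seen. With 2 libraries per state, this check cannot settle whether the numbers pair the samples. With 2 libraries a state and low counts, most ratios of single members are known only within wide intervals, and values of copies are not independent.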

Other observations

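Noncoding relatives of these families were counted too and belong in no comparison above. The pseudogene SSX6P was counted 10 and 8 times in naïve hESCs against 11 and 15 times in primed hESCs, and was not called (adjusted p = 0.695 from edgeR). The divergent transcript MAGEA3-DT, whose neighbour MAGEA3 had no count, had 53 and 62 naïve counts and 130 counts in each primed library, with a log2 fold change of 0.87 (edgeR, adjusted p = 0.00124). MAGEA6-DT had 1 and 3 against 9 and 4 and was not tested. A second transcript of XAGE1B, XAGE1B-206, had 10 and 5 counts in the naïve libraries.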
